A study of Mus musculus with 7 samples.

Results

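The genes described here are 30 members of fatty acid oxidation, chosen by name from the 46603 genes in the count tables of 7 mouse tumor libraries. They are 4 acyl-CoA synthetases of the Acsl family, 5 genes of the carnitine shuttle, 4 acyl-CoA dehydrogenases, 5 genes of the hydration, dehydrogenation and thiolysis steps, 3 of unsaturated fatty acids, 3 of electron transfer flavoproteins, 3 of peroxisomal oxidation, and Ppara, Mlycd and Acot2. The rule picks genes by their role in the pathway and uses no measured value, although the members were chosen with earlier results of these data known. Each of the 30 symbols matched 1 gene identifier. Both tumors grew from mouse embryonic fibroblasts (MEFs) in which nuclear myosin 1 (NM1), the nuclear isoform encoded by Myo1c, had been deleted with CRISPR/Cas9. The 3 KO libraries come from a tumor of the knockout cells, and the 4 KO+NM1 libraries from a tumor of the same knockout cells carrying NM1-HA-V5 from a lentivirus, picked as single clones after neomycin selection. The hosts were Balb/c nude mice, females at 16 weeks of age, of a strain without a thymus that lacks most T cells, and tumors were collected at day 30 according to the sample descriptions and slightly earlier according to the methods. Each tumor was cut into 4 equal pieces, but only 3 KO pieces are among the libraries, for which the methods give no reason. The sample descriptions give 1 tumor per condition while the methods write of tumors, so that each SD, SE and p-value covers the spread between pieces and may hold no difference between mice. Both groups lack endogenous NM1, and no tumor of wild-type cells is among the groups.

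Fatty acids are activated to acyl-CoA by synthetases, handed to carnitine by Cpt1 at the outer mitochondrial membrane, carried across the inner membrane by the translocase Slc25a20 and returned to CoA by Cpt2. In the matrix the chain is then shortened in a repeated cycle of dehydrogenation, hydration, a further dehydrogenation and thiolysis, with electrons from the first step passed by electron transfer flavoprotein to the respiratory chain. Peroxisomes shorten chains that mitochondria handle poorly, and Ppara is a nuclear receptor that activates many of these genes. The pathway runs at a high rate in brown fat, heart, liver and oxidative muscle.

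Reads counted on genes numbered 24088309 to 28326568 per piece, and a count of 0 allows up to 3 counts, or 0.0991 to 0.148 CPM (counts scaled to library size with edgeR's TMM factors), for counting error only. Myo1c, whose gene counts cannot separate NM1 from the other isoforms, stood at 289 to 313 CPM in the KO pieces and at 382 to 438 CPM in the KO+NM1 pieces (log2 fold change -0.43, SE 0.13, adjusted p = 0.0310 by edgeR's quasi-likelihood test). Mitochondrially encoded genes made up 1.81% to 2.14% of each KO library and 5.11% to 18.5% of each KO+NM1 library, lowest in piece 1 and highest in piece 3. KO+NM1 piece 1 also stood apart from the other pieces of its tumor in its marker genes, which are given after the members.

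Fatty acid oxidation genes were lower in the KO tumor at every step behind Cpt1, the entry into mitochondria. Of the 30 members, all of which passed the filter on low counts, 25 were lower in the KO pieces and 1, Acsl4, was higher, at an adjusted p under 0.05. By the same rule 24.5% of all 16887 genes tested were lower and 25.7% higher, 50.2% in either direction. All 26 of these members also differed by at least 2-fold, against 20.3% of all genes lower and 17.1% higher. The KO pieces lay below every KO+NM1 piece in 25 members and above every KO+NM1 piece in 2, Acsl3 and Acsl4, where 26.4% and 30.5% of all genes were separated in these directions. The median log2 fold change of the members, KO minus KO+NM1, was -2.22, and that of all genes tested was -0.0017. The folds of the 25 lower members ran from 2.05 for Eci2 to 37.5 for Ppara, with a median of 5.62. Acsl3, Acsl5, Cpt1a and Cpt1b did not pass the test. Only Ppara had fewer than 10 counts in any library, and it passed the filter through the KO+NM1 pieces, so that its difference was favoured by the filter. In bulk tissue, fewer cells of a type and less RNA per cell cannot be told apart.

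**Figure D1:**
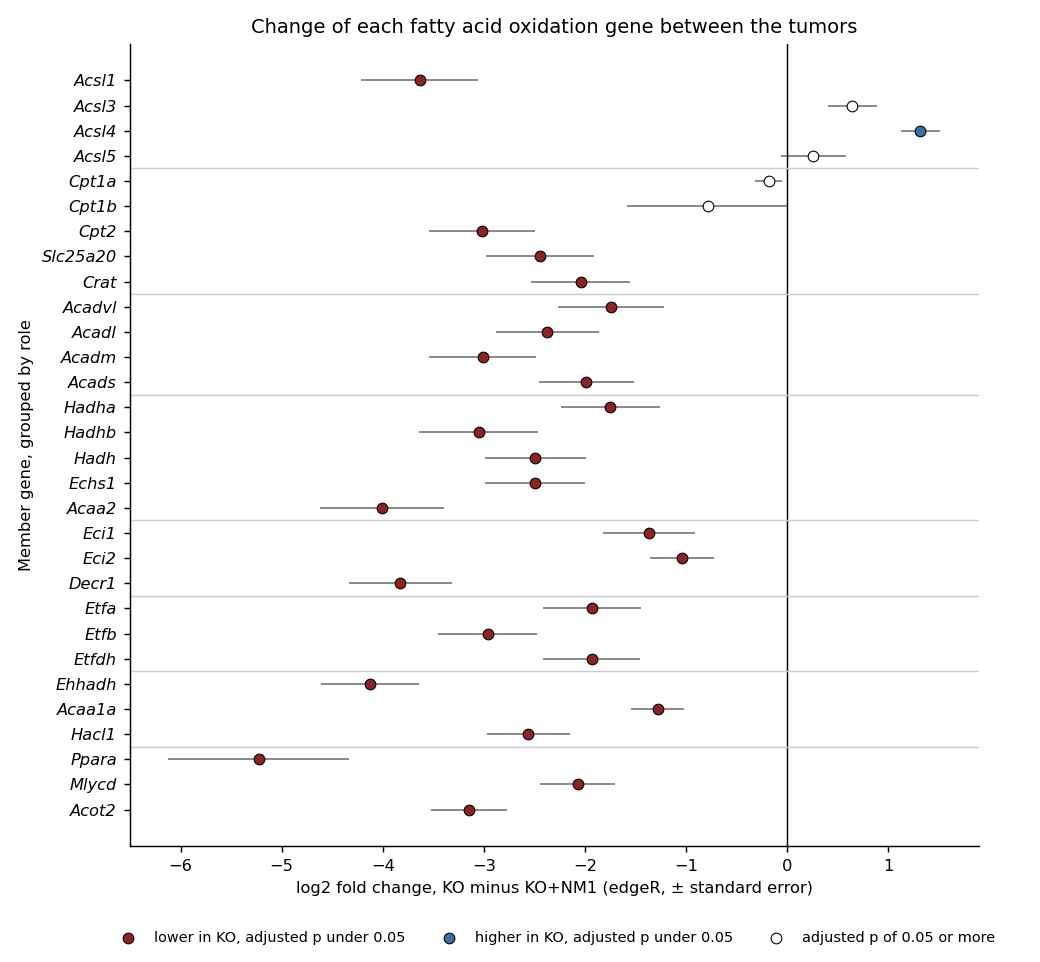
Log2 fold change, KO minus KO+NM1, of each of the 30 members with its standard error from edgeR, with lines between the groups of roles. Red points are the 25 members lower in the KO pieces, the blue point is Acsl4, and the 4 open points are members that did not pass an adjusted p of 0.05.

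The order of the members by level was not the same in both tumors. Ranks between genes depend on the exon lengths used, which sum all annotated exons of a gene. On the per-length scale (RPKM, CPM per kilobase of exon), Etfa had the highest level of the members in the KO pieces, 63.5 ± 3.59 RPKM (SD, n = 3), followed by Acadl at 38.2 ± 6.14 RPKM and Acsl5 at 34.2 ± 1.6 RPKM. In the KO+NM1 pieces the highest mean level was that of Acaa2, 332 ± 296 RPKM (SD, n = 4), followed by Etfa at 242 ± 144 RPKM and Acadl at 198 ± 142 RPKM. The means of these 3 genes lay within 1 SD of each other, with pieces that differed widely. Within single pieces, Acaa2 was above Acadl in 4 of 4 and above Etfa in 3 of 4, and Etfa was above Acadl in 3 of 4. The lowest level in the KO pieces was that of Ppara, 0.068 ± 0.0464 RPKM, and in the KO+NM1 pieces that of Cpt1b, 0.564 ± 0.586 RPKM. Together the 30 members took 0.162% to 0.182% of all counts in the KO pieces and 0.295% to 1.07% in the KO+NM1 pieces.

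**Figure D2:**
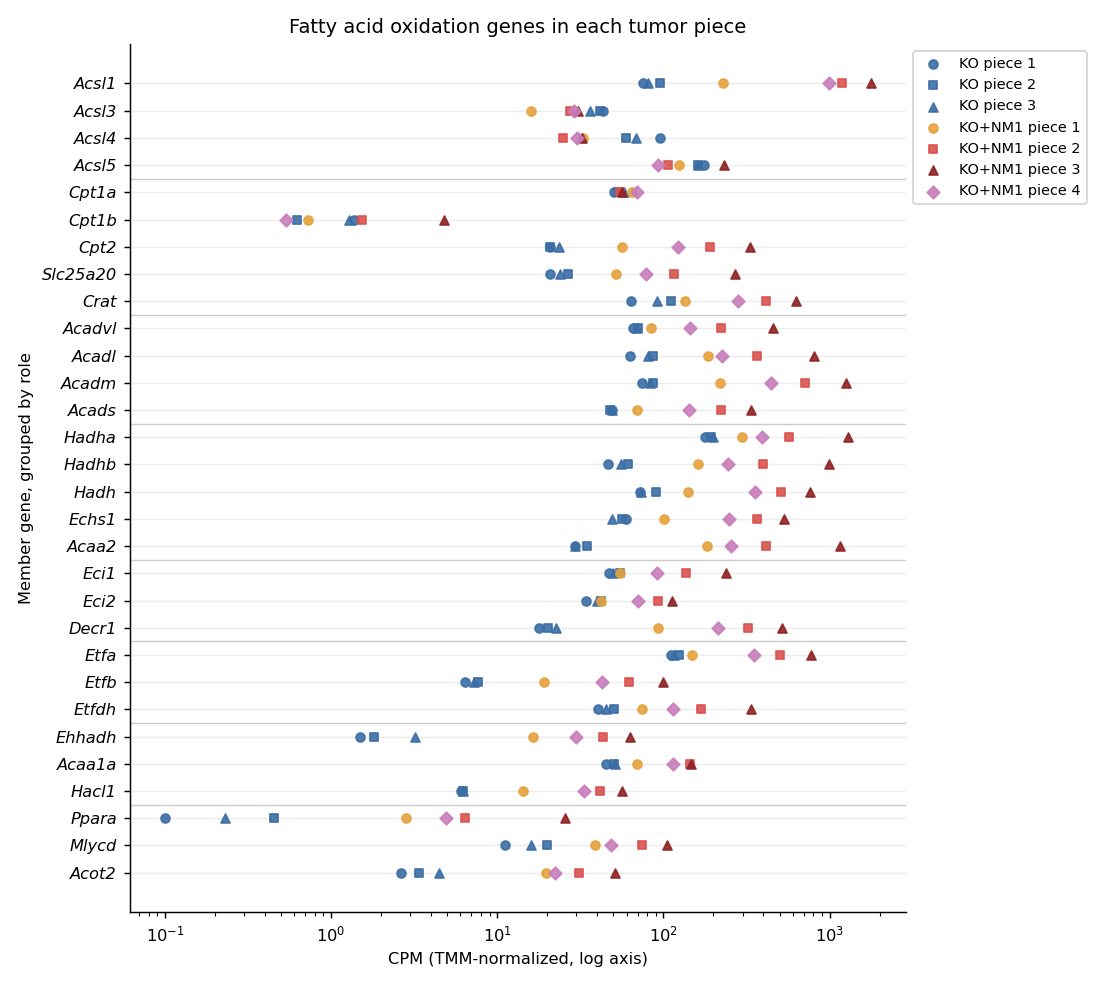
CPM of each member in each of the 7 pieces on a log axis, with KO pieces in blue and KO+NM1 pieces in warm colors, and lines between the groups of roles. For 25 members the 3 KO pieces lie below all 4 KO+NM1 pieces, with KO+NM1 piece 1 nearest to them and piece 3 farthest, while Acsl3 and Acsl4 lie the other way.

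Activation was the step at which related members went in different directions. Acsl1 is the main synthetase of adipocytes and muscle. Acsl1 stood at 74.9, 95.9 and 80.8 CPM in KO pieces 1 to 3 and at 228, 1188, 1769 and 987 CPM in KO+NM1 pieces 1 to 4. Its KO pieces lay close together, and each KO+NM1 piece was above them, with piece 1 far under the other KO+NM1 pieces. The change was 12.4-fold (log2 fold change -3.64, SE 0.58, adjusted p = 0.00431, edgeR's quasi-likelihood test with Benjamini-Hochberg adjustment over all genes tested, as for every member here). Acsl4 prefers arachidonate and similar polyunsaturated fatty acids. Acsl4 stood at 96, 59.8 and 68.7 CPM in KO pieces 1 to 3 and at 32.7, 24.9, 32.2 and 30.1 CPM in KO+NM1 pieces 1 to 4. All KO pieces were above all KO+NM1 pieces (log2 fold change 1.32, SE 0.20, adjusted p = 0.00191), but a test against a 2-fold change did not call it (adjusted p = 0.0855). Acsl3 is a synthetase of the endoplasmic reticulum and lipid droplets. Acsl3 stood at 43.1, 41.7 and 36.3 CPM in KO pieces 1 to 3 and at 15.9, 27.5, 30.7 and 29.1 CPM in KO+NM1 pieces 1 to 4. The groups did not overlap, and the change missed the threshold (log2 fold change 0.65, SE 0.24, adjusted p = 0.0589). It passed with library size alone as the scaling (0.86, adjusted p = 0.0138), by limma's voom (0.46, adjusted p = 0.00417) and without KO+NM1 piece 1 (0.34, adjusted p = 0.0236). Acsl5, a mitochondrial and endoplasmic reticulum synthetase, overlapped between the groups, at 161 to 175 CPM in the KO pieces and 93.3 to 231 CPM in the KO+NM1 pieces (log2 fold change 0.26, SE 0.32, adjusted p = 0.524). Its highest value was that of KO+NM1 piece 3, and without that piece it was higher in the KO pieces (0.61, adjusted p = 0.0219).

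Within each piece, the balance of the synthetases was expressed as the log2 ratio of Acsl1 to the sum of Acsl3, Acsl4 and Acsl5, each per kilobase. It was -3.16, -2.56 and -2.82 in KO pieces 1 to 3, against -0.69, 1.78, 1.48 and 1.58 in KO+NM1 pieces 1 to 4. On this scale Acsl1 was the smaller term in every KO piece and in KO+NM1 piece 1, and the larger term in the other 3 KO+NM1 pieces. Which term is larger depends on the exon lengths used. The groups did not overlap and differed by -3.88, but the exact permutation test (two-sided, over the 35 splits of 3 against 4 pieces) gave p = 0.0571, or 0.0857 after Benjamini-Hochberg adjustment over the 6 ratios computed here. The smallest p this design allows is 0.0286, which becomes 0.0571 after the adjustment for each of the 3 ratios that reached it, so that no ratio passed.

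The carnitine shuttle was divided between its entry enzyme and the steps behind it. Cpt1a is the liver-type and widely expressed form of the regulated entry enzyme. Cpt1a stood at 50.4, 53 and 57.6 CPM in KO pieces 1 to 3 and at 64.3, 54.6, 56.1 and 68.9 CPM in KO+NM1 pieces 1 to 4. The groups overlapped within a narrow range and no difference was detected (log2 fold change -0.18, SE 0.13, adjusted p = 0.291), and all 7 pieces lay between 50.4 and 68.9 CPM. Cpt1b is the muscle and brown fat form. Cpt1b stood at 1.37, 0.626 and 1.29 CPM in KO pieces 1 to 3 and at 0.729, 1.55, 4.79 and 0.534 CPM in KO+NM1 pieces 1 to 4. It was scarce in both groups, and KO+NM1 piece 3 alone lay above all the others (log2 fold change -0.79, SE 0.79, adjusted p = 0.447). Without that piece its log2 fold change turned to 0.21 (adjusted p = 0.784). Of its exon length, 81.4% is shared on the same strand with the readthrough gene Gm44502, which is not among the genes counted. Whether the Cpt1b counts miss reads for that reason cannot be told, because the annotation release is not given.

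The later steps of the shuttle were lower in the KO pieces. Cpt2 returns the acyl group to CoA in the matrix. Cpt2 stood at 20.7, 20.8 and 23.5 CPM in KO pieces 1 to 3 and at 56.5, 190.4, 331 and 123 CPM in KO+NM1 pieces 1 to 4. No KO piece reached any KO+NM1 piece, and the change was 8.1-fold (log2 fold change -3.02, SE 0.52, adjusted p = 0.00525). Slc25a20 is the carnitine-acylcarnitine translocase. Slc25a20 stood at 20.8, 26.6 and 23.7 CPM in KO pieces 1 to 3 and at 51.5, 115, 271 and 78.3 CPM in KO+NM1 pieces 1 to 4, and again the groups were separate (log2 fold change -2.44, SE 0.53, adjusted p = 0.0118). Without KO+NM1 piece 3 its log2 fold change was -1.80 (adjusted p = 0.00712). Crat, carnitine acetyltransferase, which buffers acetyl-CoA as acetylcarnitine, was 4.12-fold lower (log2 fold change -2.04, SE 0.49, adjusted p = 0.0156), and its KO pieces spread more widely, from 63.4 CPM in piece 1 to 111 CPM in piece 2. Its call was lost without KO piece 1 (adjusted p = 0.0583) or KO piece 3 (adjusted p = 0.0504). The log2 ratio of Cpt1b to Cpt1a per kilobase overlapped between the groups, at -5.22 to -4.03 in the KO pieces and -5.83 to -2.37 in the KO+NM1 pieces (difference -0.16, exact permutation p = 0.8286, the same after adjustment). That difference turned to 0.20 without KO piece 2 and to 0.51 without KO+NM1 piece 3.

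The stretches in front of a RefSeq start of Cpt1a and of Acadm are shown because these genes carry the hexamer AGGTCA, the core site that Ppara and many other nuclear receptors bind, in the 250 bases before these starts, Cpt1a being a member that did not pass the test and Acadm one that was lower in the KO pieces. The Cpt1a stretch lies inside the annotated gene, whose first base is chr19:3322334, and so in front of a later start. The sequences are RefSeq's for GRCm38.p6, on the strand of the gene, without bases of any annotated exon, and capitals mark the hexamer, read here on the opposite strand in both.
Cpt1a, chr19:3323051-3323284, + strand: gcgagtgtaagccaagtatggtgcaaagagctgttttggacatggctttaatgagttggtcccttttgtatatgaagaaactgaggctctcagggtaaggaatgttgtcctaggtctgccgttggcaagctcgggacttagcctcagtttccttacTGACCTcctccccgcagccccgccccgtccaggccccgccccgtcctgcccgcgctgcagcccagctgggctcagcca
Acadm, chr3:153944644-153944893, - strand: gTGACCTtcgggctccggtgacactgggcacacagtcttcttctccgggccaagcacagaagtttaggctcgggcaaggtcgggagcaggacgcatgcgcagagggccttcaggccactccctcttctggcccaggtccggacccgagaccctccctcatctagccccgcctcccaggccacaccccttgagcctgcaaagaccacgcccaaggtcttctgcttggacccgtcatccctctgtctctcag
Of the 30 members, 26 had an entry in the promoter table, with 27 starts between them, and Cpt1b, Crat, Acaa2 and Decr1 did not. Searched on both strands, AGGTCA occurred in the 250 bases before the start of 4 members, Acadm, Acadvl, Cpt1a and Echs1, and in 14% of all 32851 promoters of the same length. The repeat AGGTCANAGGTCA, which contains that hexamer and is the form bound by Ppara with its partner Rxr, occurred in 0 members and in 0.0335% of all promoters. The hexamer GGGCGG, the GC box, occurred in 18 members and in 32.7% of all promoters. Such a match is a description of the letters in this window and no more.

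The acyl-CoA dehydrogenases, which take the first electrons from the chain and are divided by chain length, were lower in the KO pieces in 4 of 4 members. Acadm is the medium-chain enzyme (chr3:153922357-153944632). Acadm stood at 74.7, 86.1 and 82.9 CPM in KO pieces 1 to 3 and at 219, 709, 1250.2 and 443 CPM in KO+NM1 pieces 1 to 4. The KO pieces differed little among themselves, with a mean of 81.2 ± 5.88 CPM (SD, n = 3), whereas the mean of 655 ± 444 CPM (SD, n = 4) for the KO+NM1 pieces had a wide spread. The change was 8.07-fold (log2 fold change -3.01, SE 0.53, adjusted p = 0.00543). Acadl is the long-chain enzyme. Acadl stood at 62.7, 86.2 and 80.9 CPM in KO pieces 1 to 3 and at 186, 366, 806 and 227 CPM in KO+NM1 pieces 1 to 4, without overlap (log2 fold change -2.37, SE 0.51, adjusted p = 0.0105), and without KO+NM1 piece 3 its log2 fold change was -1.78 (adjusted p = 0.0065). Acads, the short-chain enzyme, was 3.96-fold lower (log2 fold change -1.99, SE 0.47, adjusted p = 0.015), and its 3 KO pieces lay between 47.5 and 49.3 CPM. Without KO piece 1 it missed the threshold (adjusted p = 0.0507). Acadvl, the very-long-chain enzyme of the inner membrane, was 3.35-fold lower (log2 fold change -1.74, SE 0.52, adjusted p = 0.034), with KO+NM1 piece 1 at 84.7 CPM against a highest KO piece of 70.1 CPM. Its call was lost without KO piece 1, 2 or 3 (adjusted p = 0.0935, 0.0799 and 0.0861) or KO+NM1 piece 2 (adjusted p = 0.0655). Of the exon length of Acadvl, 42.9% is shared with Dvl2 on the opposite strand, which counting without strand would not separate. The log2 ratio of Acadl to Acadm per kilobase was 0.71 to 0.97 in the KO pieces and -0.0014 to 0.73 in the KO+NM1 pieces, with KO+NM1 piece 1 inside the KO range (difference 0.60, exact permutation p = 0.0857, adjusted p = 0.103).

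The enzymes of hydration, the following dehydrogenation and thiolysis were lower in the KO pieces in 5 of 5 members. Acaa2 is the mitochondrial thiolase for medium chains. Acaa2 stood at 29.6, 34.9 and 29.3 CPM in KO pieces 1 to 3 and at 182, 415, 1159 and 255 CPM in KO+NM1 pieces 1 to 4. It was 16.1-fold lower (log2 fold change -4.01, SE 0.61, adjusted p = 0.00391), which became -3.20 without KO+NM1 piece 3 (adjusted p = 0.00254). Hadh, the dehydrogenase of short and medium hydroxyacyl chains, was 5.62-fold lower (log2 fold change -2.49, SE 0.50, adjusted p = 0.00844). Echs1, the short-chain hydratase, was 5.64-fold lower (log2 fold change -2.50, SE 0.49, adjusted p = 0.00787). In both genes the highest KO piece, 90.4 CPM for Hadh and 59.9 CPM for Echs1, was under the lowest KO+NM1 piece, 141 and 100.4 CPM.

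Hadha and Hadhb encode the alpha and beta subunits of the mitochondrial trifunctional protein, which carries out the later steps for long chains, and both were lower in the KO pieces. Hadha stood at 177, 194 and 199 CPM in KO pieces 1 to 3 and at 299, 570.4, 1291 and 391 CPM in KO+NM1 pieces 1 to 4. Hadhb stood at 46.2, 61.3 and 55.7 CPM in KO pieces 1 to 3 and at 162, 398, 999 and 246 CPM in KO+NM1 pieces 1 to 4. Both were separate between the groups, Hadhb by 8.29-fold (log2 fold change -3.05, SE 0.59, adjusted p = 0.00818) and Hadha by 3.36-fold (log2 fold change -1.75, SE 0.49, adjusted p = 0.027). Without KO+NM1 piece 3 the log2 fold change of Hadhb was -2.32 (adjusted p = 0.00517), and the call of Hadha was lost without KO piece 1, 2 or 3 (adjusted p = 0.082, 0.0691 and 0.072) or KO+NM1 piece 2 (adjusted p = 0.0504). Their log2 ratio per kilobase was 1.53, 1.26 and 1.43 in KO pieces 1 to 3, against 0.48, 0.11, -0.03 and 0.27 in KO+NM1 pieces 1 to 4. Per kilobase of annotated exon, Hadha thus exceeded Hadhb in every KO piece, while in the KO+NM1 pieces the subunits were closer to equal. Where equality lies depends on the exon lengths used, whereas the difference between the groups does not. The difference of 1.20 reached the smallest exact permutation p of 0.0286, or 0.0571 after adjustment.

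The genes of these subunits lie head to head, Hadha at chr5:30118304-30155162 on the - strand and Hadhb at chr5:30155248-30184593 on the + strand, with RefSeq starts 273 bases apart. The 85 bases between their annotated exons are shown because both genes start outward from them, with GC boxes (GGGCGG) in capitals, from RefSeq for GRCm38.p6 on the + strand.
Hadha to Hadhb, chr5:30155163-30155247: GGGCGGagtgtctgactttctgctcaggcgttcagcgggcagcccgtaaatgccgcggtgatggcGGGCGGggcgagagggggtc
The 2 GC boxes are at the Hadha end and toward the Hadhb end of this stretch. The shared stretch stands beside log2 fold changes of -1.75 for Hadha and -3.05 for Hadhb.

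**Figure D3:**
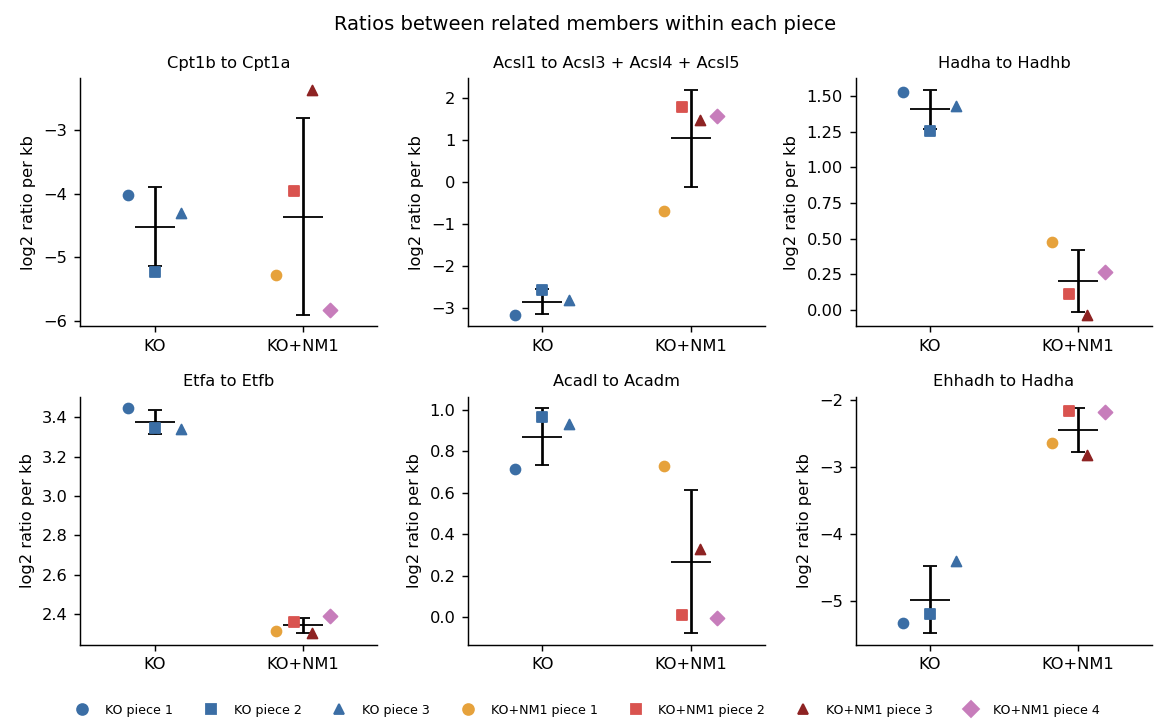
Log2 ratio of related members per kilobase of exon in each piece, with bars for the group mean and SD (3 KO and 4 KO+NM1 pieces). Hadha to Hadhb and Etfa to Etfb were higher in every KO piece than in any KO+NM1 piece, Ehhadh to Hadha and the Acsl1 ratio were lower, and the other two overlapped.

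Unsaturated chains need auxiliary enzymes, and these were lower in the KO pieces in 3 of 3 members with very different sizes. Decr1 is the mitochondrial dienoyl-CoA reductase. Decr1 stood at 17.9, 20.1 and 22.6 CPM in KO pieces 1 to 3 and at 92.8, 321, 520.1 and 212 CPM in KO+NM1 pieces 1 to 4. The groups were far apart and the change was 14.2-fold (log2 fold change -3.83, SE 0.51, adjusted p = 0.00228). Eci1 is an isomerase that shifts double bonds into the place the cycle needs. Eci1 stood at 47.1, 54.9 and 49.9 CPM in KO pieces 1 to 3 and at 55, 137, 239 and 92.1 CPM in KO+NM1 pieces 1 to 4. Its KO+NM1 piece 1 was only 1.00 times its highest KO piece, KO piece 2. The change was 2.58-fold (log2 fold change -1.37, SE 0.45, adjusted p = 0.0459). Eci2, the other isomerase, stood at 34.2, 42.1 and 39.7 CPM in KO pieces 1 to 3 and at 42.3, 92.6, 113 and 70 CPM in KO+NM1 pieces 1 to 4, with KO+NM1 piece 1 again next to the highest KO piece (log2 fold change -1.04, SE 0.32, adjusted p = 0.0325). With library size alone as the scaling these 2 members overlapped between the groups, and their calls were lost when any 1 library other than KO+NM1 piece 1 was left out, the adjusted p then being 0.0548 to 0.114 for Eci1 and 0.0526 to 0.088 for Eci2.

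Electron transfer flavoprotein passes electrons from the acyl-CoA dehydrogenases to ubiquinone, and its 3 genes were lower in the KO pieces. Etfa is the alpha subunit and Etfb the beta subunit. Etfa stood at 110.4, 123 and 115 CPM in KO pieces 1 to 3 and at 149, 501, 775 and 352 CPM in KO+NM1 pieces 1 to 4. Etfb stood at 6.43, 7.72 and 7.23 CPM in KO pieces 1 to 3 and at 19, 61.8, 99.3 and 42.5 CPM in KO+NM1 pieces 1 to 4. Each was separate between the groups, Etfa by 3.81-fold (log2 fold change -1.93, SE 0.49, adjusted p = 0.0186) and Etfb by 7.8-fold (log2 fold change -2.96, SE 0.49, adjusted p = 0.00432). Etfdh, the oxidoreductase that receives these electrons, was 3.82-fold lower (log2 fold change -1.93, SE 0.48, adjusted p = 0.0172). The call of Etfa was lost without KO piece 1, 2 or 3 (adjusted p = 0.0621, 0.051 and 0.0584), and that of Etfdh without KO piece 1 or 3 (adjusted p = 0.0609 and 0.0551).

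The ratio of the flavoprotein subunits was the steadiest within each tumor of the 6 ratios. Per kilobase, Etfa exceeded Etfb by 10.1 to 10.9 times in the KO pieces and by 4.95 to 5.25 times in the KO+NM1 pieces, although the level of both genes differed several-fold among the latter. On the log2 scale the KO pieces had a mean ratio of 3.38 ± 0.060 (SD, n = 3), against 2.34 ± 0.040 (SD, n = 4) for the KO+NM1 pieces, a difference of 1.03 with the smallest exact permutation p of 0.0286, or 0.0571 after adjustment. The height of the ratio is uncertain because 58.2% of the exon length of Etfb is shared on the same strand with Gm45233 and Mir7051, and Gm45233 had 0 counts in all 7 libraries, so that reads in the shared part may have been counted for neither gene.

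Peroxisomal oxidation was represented by 3 members, and all 3 were lower in the KO pieces. Ehhadh is the peroxisomal bifunctional enzyme and a known target of Ppara. Ehhadh stood at 1.5, 1.81 and 3.2 CPM in KO pieces 1 to 3 and at 16.4, 43.5, 62.8 and 29.6 CPM in KO+NM1 pieces 1 to 4. The groups did not overlap and it was 17.5-fold lower in the KO pieces (log2 fold change -4.13, SE 0.48, adjusted p = 0.00146). Hacl1 splits branched and hydroxylated chains. Hacl1 stood at 6.07, 6.19 and 6.24 CPM in KO pieces 1 to 3 and at 14.3, 41.6, 56.1 and 33.5 CPM in KO+NM1 pieces 1 to 4, with KO pieces nearly identical (log2 fold change -2.56, SE 0.41, adjusted p = 0.00352). Of its exon length, 33.3% is shared with Btd on the opposite strand or with Gm49387 on the same strand, and Gm49387 is not among the genes counted. Acaa1a, the peroxisomal thiolase, was 2.43-fold lower (log2 fold change -1.28, SE 0.26, adjusted p = 0.00739), and its reads could be split with the near-identical Acaa1b. The log2 ratio of Ehhadh to Hadha, the peroxisomal against the mitochondrial multifunctional enzyme, was -5.33, -5.20 and -4.41 in KO pieces 1 to 3, against -2.64, -2.16, -2.81 and -2.17 in KO+NM1 pieces 1 to 4. The peroxisomal enzyme was thus the scarcer in every piece, and its ratio was lower in every KO piece than in any KO+NM1 piece (difference -2.53, exact permutation p = 0.0286, adjusted p = 0.0571).

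The receptor and the side enzymes were lower too. Ppara stood at 0.1, 0.452 and 0.231 CPM in KO pieces 1 to 3 and at 2.84, 6.39, 25.6 and 4.89 CPM in KO+NM1 pieces 1 to 4. Its KO values rest on 3, 13 and 7 counts, and KO piece 1 is at the limit that a count of 0 allows. The change was 37.5-fold (log2 fold change -5.23, SE 0.90, adjusted p = 0.00587), and it depended on single pieces, with a log2 fold change of -4.17 without KO+NM1 piece 3 (adjusted p = 0.00545) and -5.99 without KO piece 2 (adjusted p = 0.0169). Acot2 is a mitochondrial thioesterase that releases free fatty acids. Acot2 stood at 2.63, 3.37 and 4.46 CPM in KO pieces 1 to 3 and at 19.6, 30.9, 51 and 22.4 CPM in KO+NM1 pieces 1 to 4, without overlap (log2 fold change -3.15, SE 0.38, adjusted p = 0.00137), and its reads could be split with the similar Acot1. Mlycd degrades malonyl-CoA, the inhibitor of Cpt1. Mlycd stood at 11.2, 20 and 16.1 CPM in KO pieces 1 to 3 and at 38.7, 74, 105 and 48.1 CPM in KO+NM1 pieces 1 to 4, also without overlap (log2 fold change -2.07, SE 0.37, adjusted p = 0.0051).

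The pieces of the KO+NM1 tumor were graded in these genes, and the grade was shared by the members. Among the 25 lower members, KO+NM1 piece 1 had the lowest value of the 4 in 25 and piece 3 the highest in 25, and with library size alone, an alternative chosen after seeing the data, piece 1 was lowest in 25 and piece 3 highest in 24, Acaa1a being the exception. The median fold over the mean of the KO pieces was 2.33 in piece 1, 6.48 in piece 2, 9.69 in piece 3 and 4.50 in piece 4. In piece 1, 8 of the 25 members were under 1.5 times their highest KO piece, and in the other pieces 0 were. The ratio of piece 3 to piece 1 ran from 2.11 for Acaa1a to 9.01 for Ppara, with a median of 5.20. The KO pieces were much more alike, with a median coefficient of variation over these members of 10.5%, against 61% in the KO+NM1 pieces. Without piece 1 the number of lower members was again 25, beside 36.0% of all genes tested, and that of higher members was 2, Acsl3 and Acsl4, beside 35.8%. These members share their libraries, so that the common order of the pieces is 1 observation per piece and not 25.

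**Figure D4:**
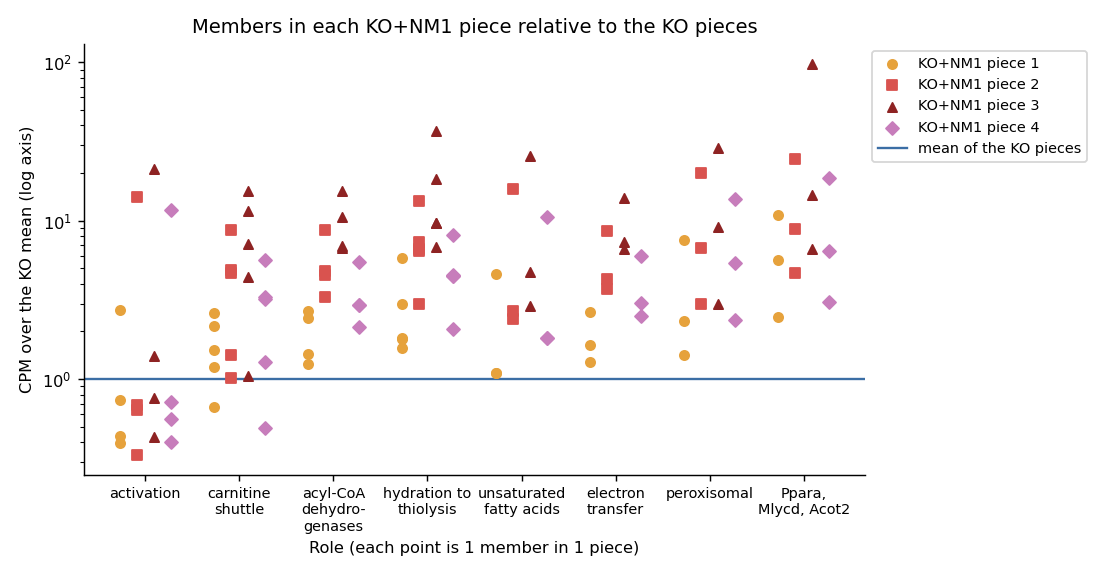
CPM of every member in each KO+NM1 piece divided by the mean of the 3 KO pieces, on a log axis, grouped by role. For the 25 lower members piece 1 lies nearest to the line of the KO mean and piece 3 farthest, while members of the activation step lie on both sides of it.

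Markers of several other cell types differed between the same groups, to be read against the 24.5% of all genes tested that were lower and the 25.7% that were higher. The cells were injected into the mammary pad according to the study's account of its results and under the skin of the flank according to its methods, and the tissue around the tumor is thus uncertain. All 10 white adipocyte markers (Adipoq, Plin1, Cidec, Lep, Retn, Cfd, Plin4, Lipe, Pnpla2 and Lpl) were lower in the KO pieces, and their summed level was 184 to 360 CPM there. In KO+NM1 pieces 1 to 4 it was 3700.4, 28371, 27488 and 21358 CPM, lowest in piece 1 as for the 25 lower members but highest in piece 2. Of 8 brown adipocyte markers 5 were lower and Zic1 was higher in the KO pieces, and the summed level was 36.5 to 59.6 CPM in the KO pieces. It was 427, 949, 3717 and 455 CPM in KO+NM1 pieces 1 to 4, lowest in piece 1 and highest in piece 3 as for the 25 lower members. Skeletal muscle markers were higher in the KO pieces in 12 of 12, with summed levels of 2499.7, 20642 and 16493 CPM in KO pieces 1 to 3, against 9.29 to 27.6 CPM in the KO+NM1 pieces. At 0 counts were Lep in KO piece 1, Zic1 in KO+NM1 pieces 2 and 3, and Krt5 in KO piece 3. Cacna1s was at 0 in all KO+NM1 pieces, Pvalb in 3, Myh4 in 2, and Myh1 and Actn3 in 1 each, and Wap in all KO and 2 KO+NM1 pieces. Cacna1s, Pvalb, Myh4 and Zic1 thus passed the filter on low counts only with the KO pieces, so that their differences were favoured by the filter. Lep and Krt5, each at 0 in 1 KO piece, passed only with KO+NM1 pieces, so that a lower level in the KO pieces was favoured likewise. Endothelial markers were lower in the KO pieces in 6 of 6, at summed levels of 178 to 204 CPM against 942 to 1300.3 CPM, and mammary epithelial markers in 3 of 7 tested, at 23.9 to 599 CPM against 458, 1716, 1388 and 2143 CPM in KO+NM1 pieces 1 to 4, so that their sums overlapped. Macrophage markers were higher in 5 of 7 and lower in 1, at 2561 to 2915 CPM against 2399, 781, 611 and 867 CPM in KO+NM1 pieces 1 to 4, where piece 1 stood far above the rest. Proliferation markers were higher in 6 of 6, at 1544 to 2077 CPM against 71, 16.1, 16.5 and 29.7 CPM, again highest in piece 1 of the KO+NM1 tumor. Fibroblast markers, for the cells injected, were lower in 3 of 8, while the other 5 did not pass the test. Their sums overlapped, at 7216 to 12966 CPM in the KO pieces and at 2817, 11364, 7431 and 12707 CPM in KO+NM1 pieces 1 to 4, lowest in piece 1. The part of these cell types in the change of the members was not tested.

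**Figure D5:**
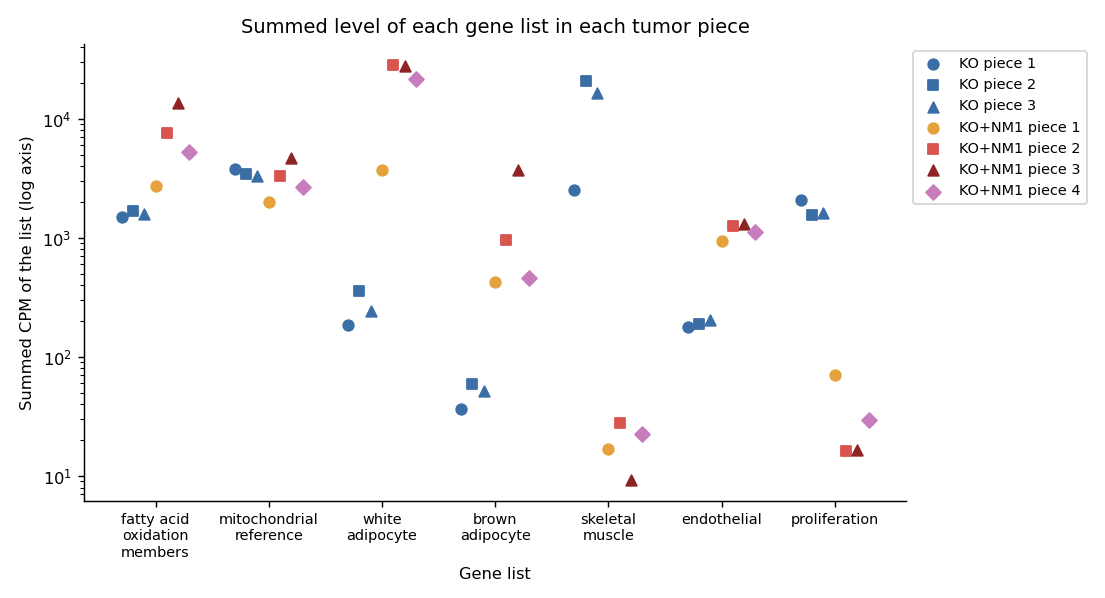
Summed CPM of the 30 members and of 6 further gene lists in each piece, on a log axis. The members and both adipocyte lists are lowest in the KO pieces, with KO+NM1 piece 1 the lowest of its tumor in each of these lists, and the skeletal muscle and proliferation lists are highest in the KO pieces.

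Genes for other mitochondrial functions were set beside the members. Of 16 reference genes for import, chaperones, channels and citrate synthase, 0 were lower in the KO pieces by edgeR, beside 24.5% of all genes. The number lower was 0 at an unadjusted p under 0.05 as well and by DESeq2, although limma's voom called 4 lower and 7 higher. By edgeR 5 of the 16 were higher, beside 25.7% of all genes tested, and of these Tomm70a, an import receptor, had the largest change (log2 fold change 1.20, SE 0.14, adjusted p = 0.000984). The median log2 fold change of these 16 genes was 0.33, against -2.22 for the members. Their summed level was 3321 to 3781 CPM in the KO pieces and 1978 to 4658 CPM in the KO+NM1 pieces, so that the groups overlapped. With other scalings in edgeR the number of lower genes stayed 0, and that of higher genes was 4 to 8, the most with library size alone.

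The pathway's other genes were read from further lists, beside 24.5% of all genes tested that were lower and 25.7% that were higher. Of 8 other mitochondrial acyl-CoA dehydrogenases, which include enzymes of branched-chain amino acid breakdown, 5 were lower in the KO pieces and 0 higher (median log2 fold change -1.87), with the largest change in Acad11 (log2 fold change -2.86, SE 0.52, adjusted p = 0.00627). Of 16 other peroxisomal genes 10 were lower and 0 higher (median -1.22), led by Abcd2, a transporter of very long chains into peroxisomes (log2 fold change -5.68, SE 0.60, adjusted p = 0.00141). Of 12 tested genes of fatty acid uptake and binding, out of 13 listed, 7 were lower and 0 higher (median -1.86). Among these Slc27a2, a transporter and very-long-chain synthetase, was at 2.22 to 21 CPM in the KO+NM1 pieces and at no more than 1 count in any KO piece, which makes it at least 77.3-fold lower against 3 counts per library. Slc27a2 passed the filter on low counts through the KO+NM1 pieces, so that its difference was favoured by the filter. Of 6 genes of ketone bodies, the product of acetyl-CoA from oxidation, 3 were lower and 0 higher (median -1.23). For these 4 lists, 0 genes were higher by edgeR also at an unadjusted p under 0.05 and by DESeq2, 2 by limma's voom and 1 with library size alone, a scaling that called 8 of the peroxisomal and 6 of the uptake genes lower.

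Other synthetases and thioesterases went both ways. Of 14 tested, out of 16 listed, 10 were lower in the KO pieces and 3 were higher, with a median log2 fold change of -2.14. Acsl6, the synthetase of brain and red cells, stood at 42.2, 40.4 and 34.8 CPM in KO pieces 1 to 3 and at 0.365, 0.366, 0 and 0.288 CPM in KO+NM1 pieces 1 to 4, the reverse of Acsl1 (log2 fold change 7.20, SE 0.64, adjusted p = 0.000594). Acsl6 passed the filter on low counts through the KO pieces, so that its difference was favoured by the filter. The other 2 that were higher were the thioesterases Acot7 (2.00) and Acot9 (1.08), named after their values were seen. Acsm5, a medium-chain synthetase, passed that filter through the KO+NM1 pieces and was favoured by it likewise. It had 0 counts in every KO piece and 0.401 to 5.93 CPM in the KO+NM1 pieces, which makes it at least 36.2-fold lower against 3 counts per library. The medians of this list and of the uptake genes were the same with such genes at their bounds.

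Among 22 regulators of fatty acid oxidation, 14 were lower in the KO pieces and 3 were higher, with a median log2 fold change of -1.51. Pparg, the receptor of adipocytes and relative of Ppara, was lowest relative to the KO+NM1 pieces (log2 fold change -5.51, SE 0.60, adjusted p = 0.00148), while Ppard, the widely expressed receptor of the same family, stood at 97.6, 77.9 and 74.7 CPM in KO pieces 1 to 3 and at 73.9, 61.2, 51.9 and 54.2 CPM in KO+NM1 pieces 1 to 4 and missed the threshold in the other direction (log2 fold change 0.47, SE 0.17, adjusted p = 0.0584). Of the coactivators that work with these receptors, Ppargc1a was lower (log2 fold change -2.99, SE 0.63, adjusted p = 0.0112) and so was Ppargc1b (log2 fold change -1.65, SE 0.50, adjusted p = 0.0344), as was the receptor Esrra (log2 fold change -1.26, SE 0.23, adjusted p = 0.00471). Acaca and Acacb, which make malonyl-CoA, the inhibitor of Cpt1, were lower as well, Acaca by 4.46-fold (log2 fold change -2.16, SE 0.59, adjusted p = 0.0259) and Acacb by 10.6-fold (log2 fold change -3.40, SE 0.78, adjusted p = 0.0172). Acacb spread widely in the KO pieces, from 8.27 CPM in piece 1 to 44.5 CPM in piece 2, the pieces with the lowest and the highest skeletal muscle sum, whose part in this spread was not tested. Cpt1c, the form of Cpt1 found in neurons and some tumors, was higher in the KO pieces, at 27.4, 27 and 29.6 CPM in KO pieces 1 to 3 and at 7.29, 11.3, 7.21 and 14.2 CPM in KO+NM1 pieces 1 to 4 (log2 fold change 1.48, SE 0.28, adjusted p = 0.00446).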

How the data were processed

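Tumor pieces were sequenced with the NEBNext Ultra II RNA kit on a NextSeq platform. According to the methods and the submitters' processing notes, the authors trimmed reads with Trimmomatic 0.36, checked them with FastQC, aligned them to GRCm38 (mm10) with HISAT2 2.0.4, sorted them with SAMtools 0.1.19 and counted them per gene with HTSeq. The annotation release, strand option and overlap mode are not given in the sources used here, so that reads of overlapping or antisense genes may be lost or shared. The deposited values are raw counts for 46603 Ensembl genes, of which 46091 were given a GENCODE M21 symbol. No library repeated another, since over the 21 pairs the chi-square of their counts divided by its degrees of freedom was 35.2 to 1049.7, where sampling noise gives 1.

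Counts were analysed in R 4.3.3 with edgeR 4.0.16: filterByExpr with a minimum count of 10, TMM scaling, and the quasi-likelihood test of the KO against the KO+NM1 pieces over 16887 genes with Benjamini-Hochberg adjustment and a common biological coefficient of variation of 46.7%. Alternatives were DESeq2 1.42.0 (size factors and Wald test), limma 3.58.1 voom with sample weights, glmTreat, other scalings and filters, a replicate block, and each library left out. RPKM used the summed exon length per gene. Ratios between members were tested by exact permutation. Of these steps only the edgeR fit was tested on simulated data. In that simulation few genes changed, equally in both directions, with the same dispersion trend in both groups. How the fit behaves when many genes differ or the groups spread unequally was thus not tested. All members are reported, and in each further list the gene with the largest fall and the largest rise that passed, with 7 chosen regulators and except where a gene is counted but not reported here. The further lists were other acyl-CoA dehydrogenases, other peroxisomal oxidation, uptake and binding, other synthetases and thioesterases, ketone bodies, regulators and mitochondrial reference genes, and the marker lists those described beside the members. The members and lists were chosen with earlier results of these data known.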

Additional observations from a re-analysis of the deposited data

Results flagged for a closer look

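In 36 values of the members and their ratios, the 4 KO+NM1 pieces were searched for a piece far from the others, by the gap to its neighbour as a share of the whole range. Chance gives about 1 in 20, and 2 of the 36 were past the 95% critical value for 4 samples. For Acsl3 the gap was 0.834 of the range: KO+NM1 piece 1 was lowest, at 3.99 on the log2 CPM scale against 4.78, 4.94 and 4.86 in pieces 2 to 4. For the log2 ratio of Acsl1 to the sum of Acsl3, Acsl4 and Acsl5 the gap was 0.876, with piece 1 at -0.69 against 1.78, 1.48 and 1.58. Piece 1 also had the lowest white adipocyte marker sum of the KO+NM1 pieces, 3700.4 CPM, and its part in these values was not tested.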

How the results depend on the processing

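The 25 lower members kept a log2 fold change below 0 under every alternative run, and 15 of them passed the threshold under every one that tested them. Their number was 16 against a 2-fold null (glmTreat), 17 to 25 with 1 library left out, 18 with the replicate block and 24 to 25 with the other scalings, filters and tools. Of all genes tested, 24.5% were lower and 25.7% higher in the main fit, and 36.0% and 35.8% without KO+NM1 piece 1. These shares are not given for the other settings, so whether the drops are particular to the members cannot be told. The number of higher members was 2 with library size alone, 2 by limma's voom, 0 with glmTreat (1 at an unadjusted p under 0.05, and 1 by DESeq2) and 1 to 2 with 1 library left out. The members' median ran from -2.59 to -1.78. Library size alone moved the median of all genes by 0.17 and upper-quartile scaling by -0.16, beside -0.0017.

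With 1 library left out, the exact permutation test of a ratio cannot go below 0.0667 or 0.1, and with the replicate block not below 0.25, so none could pass. The differences were 1.12 to 1.29 (block 1.22) for Hadha to Hadhb, 0.997 to 1.05 (block 1.05) for Etfa to Etfb, and -2.82 to -2.36 (block -2.44) for Ehhadh to Hadha. That of Cpt1b to Cpt1a ran from -0.65 to 0.51, and was 0.20 without KO piece 2 and 0.51 without KO+NM1 piece 3, where the log2 fold change of Cpt1b itself, -1.19 to 0.21 with 1 library left out, turned to 0.21. The cause was not tested. The labels give same-numbered pieces of the tumors nothing in common but a number, and the block took 7 calls. Their deviations from the group means correlated at 0.0802, 0.102 and -0.0165. KO piece 1 was closest to its own number, and KO pieces 2 and 3 were not. These correlations cannot tell whether same-numbered pieces were handled together. With all 7 libraries the block, chosen after seeing the data, also took 7, and the unblocked fit on pieces 1 to 3 took 2. Depth limited Ppara and Cpt1b most.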

Other observations

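Some carriers of fatty acids, named after their values were seen, differed between the tumors too. Cd36, a fatty acid receptor and transporter of the cell surface, stood at 24.7, 57.2 and 54.6 CPM in KO pieces 1 to 3 and at 518, 2873, 2937 and 2199 CPM in KO+NM1 pieces 1 to 4 (log2 fold change -5.55, SE 0.60, adjusted p = 0.00146, edgeR). Fabp4, the fatty acid binding protein of adipocytes and some macrophages and endothelial cells, stood at 20, 68.7 and 37.1 CPM in KO pieces 1 to 3 and at 1985, 12989, 14039.6 and 8953 CPM in KO+NM1 pieces 1 to 4 (log2 fold change -7.82, SE 0.71, adjusted p = 0.00126). Both were lowest in KO+NM1 piece 1 among the pieces of that tumor, like the 25 lower members. Fabp3, the binding protein of heart, muscle and brown fat, stood at 1.9, 4.1 and 5.15 CPM in KO pieces 1 to 3 and at 18.2, 25.2, 172 and 13.9 CPM in KO+NM1 pieces 1 to 4, with KO+NM1 piece 3 far above the rest (log2 fold change -3.95, SE 0.95, adjusted p = 0.022). Dbi, the acyl-CoA binding protein, stood at 55.2, 68.6 and 54.1 CPM in KO pieces 1 to 3 and at 209, 1179, 1428 and 828 CPM in KO+NM1 pieces 1 to 4 (log2 fold change -3.94, SE 0.56, adjusted p = 0.003).

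Among the peroxisomal genes outside the members, Scp2 was named after its values were seen. Scp2, a thiolase and sterol carrier, stood at 86.8, 87.1 and 86.1 CPM in KO pieces 1 to 3 and at 209.7, 644, 777 and 491 CPM in KO+NM1 pieces 1 to 4, without overlap (log2 fold change -2.61, SE 0.40, adjusted p = 0.00304).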
